A study of Mus musculus with 3 samples.

Results

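The genes described here make cholesterol and fatty acids. They were given as a list of 33 gene symbols, and 28 of them had a named probe among the 17742 genes of the arrays: 13 enzymes of sterol synthesis, 10 enzymes of fatty acid synthesis and all 5 listed regulators of the SREBP system. A gene counted as measured when the platform's symbol for a probe matched its current or an older name, and its brightest probe, by the mean of the 3 arrays, stood for it. Acat2, Hmgcs1, Cyp51, Acly and Acacb were not analysed here. The rule that picked a gene's probe used its mean over all arrays and not the difference between groups, though a high value on the resistant array alone could decide it.

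Cells build cholesterol from acetyl-CoA by way of mevalonate, isoprenoid diphosphates, squalene and lanosterol, and fatty acids from the same acetyl-CoA by way of malonyl-CoA, with later elongases and desaturases setting chain length and double bonds. SREBP transcription factors control both branches: the protein from Srebf2 acts mostly on sterol genes, and that from Srebf1 mostly on fatty acid genes. They are held in the endoplasmic reticulum with Scap by the Insig proteins while sterols are plentiful, and released by cleavage in the Golgi when sterols run low. Proliferating leukaemia cells need both products for new membranes.

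The arrays held RNA from cultured acute myeloid leukaemia cells of mouse strain BXH-2, taken from bone marrow per the labels. The parental line B117P, sensitive to the drug, was hybridised on 2 arrays. Resistant cells were on 1 array, from B117HS, a line derived from B117P by stepwise exposure to cytarabine (Ara-C, a nucleoside drug that blocks DNA synthesis) for about 10 weeks, with an IC50 about 10 times that of the parent. Each group is therefore 1 line, and the same culture medium is given for both. Nothing in the labels ties the sensitive arrays to different cultures, and the p-values rest on the spread between them, possibly a technical one. With 1 resistant array, its variance was taken to equal that of the sensitive arrays.

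Values are fluorescence intensities in arbitrary units, compared between arrays for the same probe or, for marker lists, for the sum of the same probes. Differences are log2(intensity + 50) in resistant cells minus the mean of the sensitive arrays, a scale that understates the change of dim genes. A gene was called when limma's Benjamini-Hochberg adjusted p over all genes was under 0.05 and the resistant array differed from both sensitive arrays by at least 1, with the same sign. The resistant array was dimmer: over 6182 probes of at least 500 units its median log2 ratio to the sensitive mean was -0.77, and in probes of 10000 units or more it was -0.38. Values are therefore also given after 1 factor per array had set that median to 0 ("after scaling"), and for many genes after quantile normalization. A gene is said to have risen or fallen where both the deposited and the scaled values called it. Of 10 measured myeloid markers, 9 or 10 read at least 50 units on each array, and Mpo, a granule enzyme, read 76710, 84138 and 80905.

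Some markers of cell identity also moved. Among myeloid markers Elane, a neutrophil protease, read 272 and 350 against 11153, and Spi1, a myeloid transcription factor, 634 and 591 against 109. Ctsg read 12900 and 12593 against 28196, Itgam 1318 and 2389 against 443, and Csf3r 277 and 446 against 66.9. As deposited, 2 of the 10 were called higher (20%, against 5.23% of all genes) and 3 lower (30%, against 18.5%). After scaling, 3 were called higher and 1 lower (9.87% and 8.42% of all genes). The 3 measured B cell markers summed to 1264 and 1311 against 124, mostly through Cd79b at 970 and 1049 against 21.8. T cell markers (5) summed to 322 and 286 against 118, stromal markers (5) to 328 and 280 against 151, and erythroid markers (3) to at most 93.2 on any array. These sums are of values as deposited. The T cell sum was mostly Cd3e, at 272 and 223 against 90.2, and 4 of the 5 were below 50 units everywhere. No T cell marker was called as deposited, after scaling or after quantile normalization. The stromal sum hides opposite moves: Pdgfra read 2.48 and 3.96 against 112, and Pdgfrb 261 and 203 against 23.3. Adipocyte markers (6) summed to 196 and 231 against 168, with 4 of them below 50 units everywhere and Adipoq at 0 on the resistant array. The part of these markers' cells in the lipid gene results was not tested. In bulk RNA, fewer cells of a type and less RNA per cell cannot be told apart.

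Among the 28 genes, the sterol enzyme gene Nsdhl and the elongase genes Elovl5 and Elovl6 rose in resistant cells, and Acaca and Fads2 fell. These 5 were called as deposited, after scaling and after quantile normalization. That is 3 of 28 higher (10.7%, against 5.23% of all genes) and 2 lower (7.14%, against 18.5% of all genes). After scaling, 12 of 28 were called higher (42.9%, against 9.87% of all genes) and 2 lower (against 8.42%). After quantile normalization 9 were called higher (32.1%, against 8.48%) and 2 lower (against 8.5%). Dim genes lower the shares of all genes: 5966 of 17742 were below 50 units on every array, against 1 of the 28. Among 5318 genes of at least 500 units, 8.86% were called higher and 35.2% lower as deposited. Those shares were 17.6% and 13.4% after scaling, and 13.4% and 17.1% after quantile normalization. As deposited, 57.1% of the genes lay above 0, compared with 25.2% of all genes. Between the sensitive arrays none of the 28 differed by 1 or more, and the median absolute difference was 0.19.

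**Figure D1:**
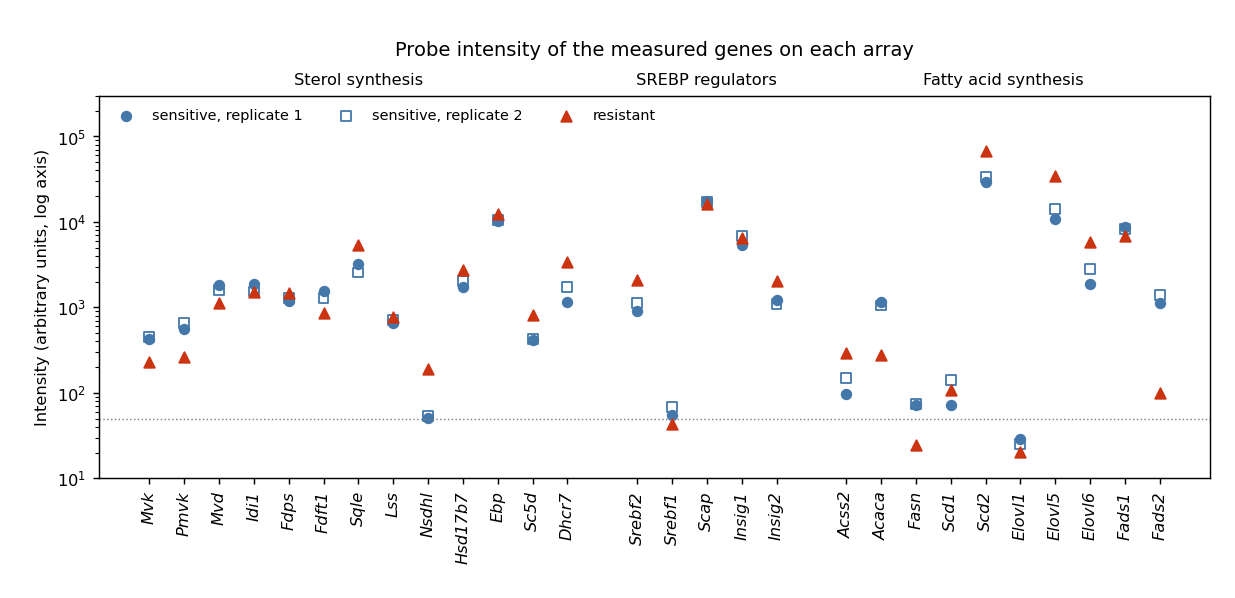
Intensity (log axis, arbitrary units) of the 28 measured genes on the sensitive arrays (blue circles and open squares) and the resistant array (red triangles), in pathway order within each group; the dotted line marks 50 units. Fads2 and Acaca have the resistant array far below both sensitive arrays, and Nsdhl, Elovl5 and Elovl6 have it above both.

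The promoters of 5 members show how the DNA in front of these genes differs. CCAAT is the site read by the factor NF-Y, which commonly acts beside SREBP, and TCACNCCA is the core of a sterol regulatory element. Both were searched on both strands in RefSeq windows (GRCm38.p6) from 250 bases before to 50 after each start, counting a gene if any of its windows held a match. The motifs can share letters (a TCACNCCA followed by AT holds a CCAAT), but the matches in Srebf2 do not. Of the 28 measured genes, 22 had a window. CCAAT was present for all 10 sterol enzymes with a window, 4 of 5 regulators and 4 of 7 fatty acid enzymes, and for 41.1% of all 27025 genes with a window. TCACNCCA was present for Srebf2 alone among the 22, and for 4.97% of all genes. The 250 bases before the start are printed 5′ to 3′ along each gene, with matches to either motif on either strand in capitals. Srebf2 (chr15:82147019-82147268, plus strand) holds 1 of each motif, the sterol element 162 bases before the start. Nsdhl (chrX:72918271-72918520, plus) and Elovl5 (chr9:77917115-77917364, plus) are genes that rose. Mvk (chr5:114444019-114444268, plus), with 5 CCAAT matches, was not called, and Fads2 (chr19:10101504-10101753, minus), which fell, has no match.
Srebf2: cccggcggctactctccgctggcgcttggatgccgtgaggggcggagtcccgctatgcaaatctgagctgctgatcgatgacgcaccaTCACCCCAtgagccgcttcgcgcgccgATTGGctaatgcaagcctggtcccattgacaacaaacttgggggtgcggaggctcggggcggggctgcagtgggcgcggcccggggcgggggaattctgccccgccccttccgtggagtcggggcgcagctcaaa
Nsdhl: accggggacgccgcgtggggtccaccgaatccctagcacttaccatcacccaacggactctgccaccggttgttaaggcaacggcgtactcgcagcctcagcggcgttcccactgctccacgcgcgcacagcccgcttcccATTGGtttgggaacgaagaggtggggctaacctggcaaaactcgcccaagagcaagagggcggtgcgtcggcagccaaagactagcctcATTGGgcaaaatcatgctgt
Elovl5: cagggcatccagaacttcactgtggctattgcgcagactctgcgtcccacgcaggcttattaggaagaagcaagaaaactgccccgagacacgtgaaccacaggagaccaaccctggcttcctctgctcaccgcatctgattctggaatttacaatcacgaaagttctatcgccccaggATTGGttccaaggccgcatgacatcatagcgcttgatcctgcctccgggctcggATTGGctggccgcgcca
Mvk: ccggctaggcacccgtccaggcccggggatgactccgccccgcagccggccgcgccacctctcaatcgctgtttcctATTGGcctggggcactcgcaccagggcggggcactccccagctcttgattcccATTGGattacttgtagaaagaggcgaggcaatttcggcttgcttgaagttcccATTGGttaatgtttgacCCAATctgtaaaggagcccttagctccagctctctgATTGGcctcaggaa
Fads2: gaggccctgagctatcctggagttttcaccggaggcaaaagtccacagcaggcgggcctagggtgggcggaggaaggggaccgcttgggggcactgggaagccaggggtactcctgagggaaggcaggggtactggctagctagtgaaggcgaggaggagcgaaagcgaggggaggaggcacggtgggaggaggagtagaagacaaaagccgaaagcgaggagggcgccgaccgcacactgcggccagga
CCAAT matches therefore stood in front of genes that rose and of genes that were not called. They also lay in the windows of Dhcr7, Sc5d and Idi1, while Elovl6, which rose, had none. A match is only a run of letters, and binding was not measured here.

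The early sterol enzymes, from mevalonate to squalene, read below both sensitive arrays as deposited with the exception of Fdps, and none was called. The mevalonate kinase gene Mvk read 425 and 452 on the sensitive arrays against 229 on the resistant one (-0.81). Pmvk, which adds the next phosphate, read 558 and 660 against 266 (-1.06, SE 0.25, limma adjusted p = 0.0046) and missed the size asked against replicate 1 (-0.94). Its other probes read 236, 334 and 132, and 8.70, 6.60 and -4.67, so the second-brightest moved the same way and the dimmest was near 0. Mvd, the decarboxylase that makes isopentenyl diphosphate, read 1814 and 1596 against 1117 (-0.59). Fdft1, squalene synthase, read 1557 and 1274 against 860 (-0.68), and its dim second probe 19.9, 21.1 and 10.9.

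Idi1 and Fdps, which isomerise and join the isoprenoid units, lay closer to the parent. Idi1 read 1896 and 1535 against 1496 (-0.18), just below the lower sensitive array. Fdps read 1189 and 1291 against 1472 (0.24), the only early enzyme above both sensitive arrays. After scaling, the 6 early enzymes ranged from -0.38 (Pmvk) to 0.99 (Fdps) with a median of 0.11, and again none was called.

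The late sterol enzymes, from squalene to cholesterol, all read above both sensitive arrays. Nsdhl, which takes part in removing the methyl groups of lanosterol, rose from 50.9 and 54.1 to 190 units, 3.61 times the sensitive mean of 52.5 ± 2.22 (SD, n = 2). Its log2 difference was 1.23 (SE 0.28, limma adjusted p = 0.0034), and 1.87 after scaling. The sensitive values lie at the edge of the dim range, and with an offset of 100 the difference was 0.93 and the call was lost. Dhcr7, the reductase of the last step to cholesterol, read 1165 and 1738 against 3362 (1.21, adjusted p = 0.0017 in limma). The sensitive arrays themselves were apart here, and the resistant array stood 1.49 above replicate 1 and 0.93 above replicate 2, short of the size asked.

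Sqle, squalene epoxidase, a rate-controlling enzyme that opens the sterol-specific part of the route, read 3230 and 2564 against 5312 (0.87, adjusted p = 0.0054 in limma). Sc5d, a desaturase of the sterol ring, read 415 and 423 against 817, 1.95 times the sensitive mean (0.89, adjusted p = 0.0095). These differences were well beyond the gap between the sensitive arrays but under 1 as deposited. Both genes were called higher after scaling (1.64 and 1.62) and after quantile normalization (1.22 and 1.50), as was Dhcr7 (1.97 and 1.64).

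Smaller differences were seen for the other late enzymes. Hsd17b7, the ketosteroid reductase of demethylation, read 1756 and 2039 against 2761 (0.53) and was called after scaling (1.30) and after centring on array medians (1.16) but not after quantile normalization. Ebp, the sterol isomerase, read 10173 and 10493 against 12511 (0.28). It too was called after scaling (1.05), where 1 factor was applied to a bright probe, while quantile normalization gave 0.37 with no call. Lss, which closes squalene epoxide into lanosterol, read 662 and 714 against 776 (0.16) and was not called on any of these scales.

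Divided at squalene, a division chosen after the values were seen and therefore not tested, the route had a median of -0.63 for 6 early enzymes and 0.87 for 7 late ones. After scaling the medians were 0.11 and 1.62, and after quantile normalization -0.05 and 1.22. The groups overlapped only at Fdps, which lay above Lss as deposited. Late enzymes were above 0 as deposited in 7 of 7 cases and early enzymes in 1 of 6, against 25.2% of all genes. These counts come from the values that set the division and so give it no support. On the dimmer resistant array 0 is not a neutral mark. Genes of at least 500 units had a median of -0.74 as deposited, below the early median, and of -0.22 after quantile normalization. After scaling, 4 of the 6 early enzymes were above 0.

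**Figure D2:**
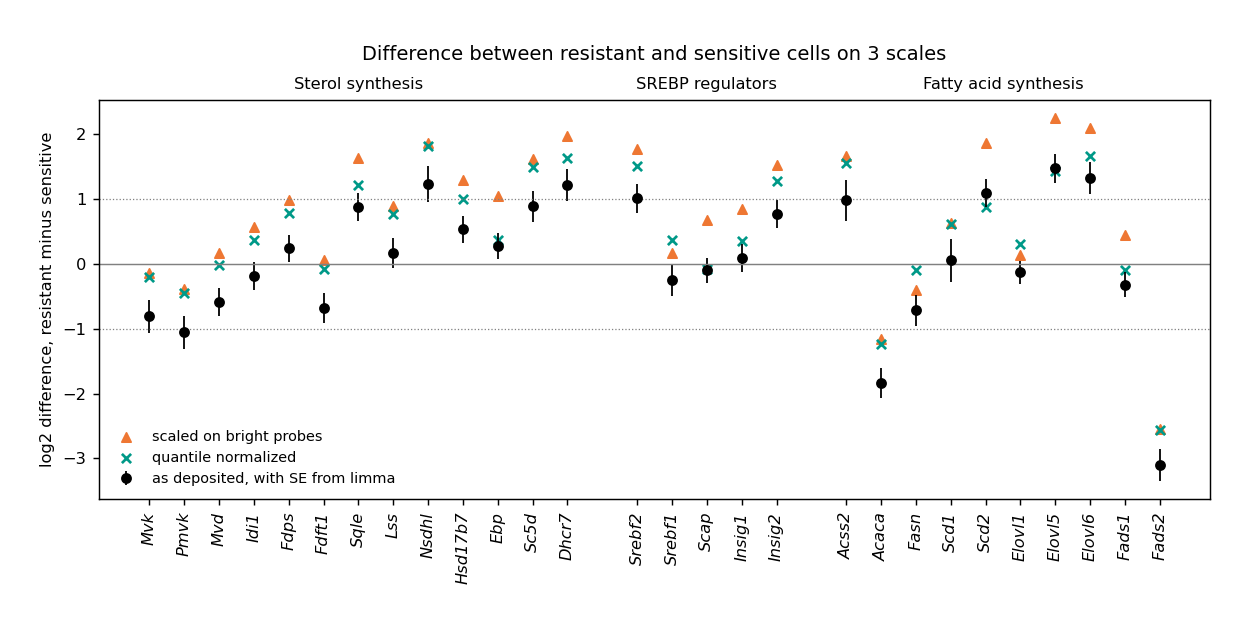
Log2 difference of each gene, resistant minus sensitive, as deposited (black, with limma's SE), after scaling on bright probes (orange triangles) and after quantile normalization (green crosses); dotted lines mark 1 and -1. Nsdhl, Elovl5, Elovl6, Dhcr7 and Srebf2 are above 1 and Acaca and Fads2 below -1 on all 3 scales. Dhcr7 and Srebf2 were not called as deposited, because they missed the size asked against replicate 2. Scd2 passes 1 as deposited and after scaling and stays at 0.88 after quantile normalization.

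Among the regulators, Srebf2 and Insig2 were the higher ones. Srebf2 read 921 and 1140 against 2114, 2.05 times the sensitive mean of 1030 ± 155 (SD, n = 2). Its log2 difference was 1.01 (SE 0.22, limma adjusted p = 0.0029), with 1.16 from replicate 1 and 0.86 from replicate 2, so it was not called as deposited. It was called after scaling (1.77) and after quantile normalization (1.52). Insig2, a retention protein of the endoplasmic reticulum, read 1228 and 1099 against 2013 (0.77, adjusted p = 0.011) and was called on the same 2 other scales (1.53 and 1.28). The resistant array lay above both sensitive arrays for both genes.

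Insig1, Scap and Srebf1 showed no call on any of the 3 scales. Insig1, itself a well-known SREBP target, read 5382 and 6860 against 6451, between the sensitive arrays. Scap, the escort protein that senses sterols, read 17624 and 17027 against 16142 (-0.10). Srebf1 was dim on every array, at 54.7 and 68.6 against 43.6, so little can be read from its difference of -0.25. The 5 regulators had a median of 0.09 as deposited and 0.85 after scaling.

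In the fatty acid branch the first committed enzyme and a desaturase fell while the elongase genes Elovl5 and Elovl6 rose. Acaca, acetyl-CoA carboxylase, which makes malonyl-CoA, fell from 1165 and 1053 to 275 units. That is 0.25 times the sensitive mean of 1109 ± 79.8 (SD, n = 2). The difference was -1.83 on the log2 scale (SE 0.23, adjusted p = 5.27e-05 in limma) and -1.15 after scaling. The fatty acid synthase gene Fasn, which uses that malonyl-CoA, was dim, at 72.1 and 73.9 against 24.9 (-0.72), and was not called except with an offset of 16 (-1.12). Acss2, which makes acetyl-CoA from acetate, read 98.2 and 150 against 289 (0.98), 2.33 times the sensitive mean. It was called after scaling (1.66) and after quantile normalization (1.56), and as deposited it missed the size asked against replicate 2 (0.76).

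Of the 3 measured elongase genes among the 28, 2 rose and 1 was near background. Elovl5, which lengthens polyunsaturated fatty acids, rose from 10691 and 14203 to 34426, 2.77 times the sensitive mean of 12447 ± 2484 (SD, n = 2). Its log2 difference was 1.48 (SE 0.22, limma adjusted p = 2.13e-04), 2.25 after scaling and 1.43 after quantile normalization. Elovl6, which lengthens palmitate, rose from 1879 and 2842 to 5875, a log2 difference of 1.33 (adjusted p = 9.00e-04). The sensitive arrays differed for both genes, with replicate 2 the higher, and the resistant array was at least 1.03 above each of them. Elovl1, an elongase of very long chains, read 28.6 and 25.1 against 20.2, near background on every array. Outside the 28, Elovl7 read 147 and 145 against 45.1 (-1.04, limma adjusted p = 0.010). It was called lower as deposited, but not after scaling (-0.62) or quantile normalization (-0.45). Elovl4 read 102 and 96.3 against 66.9 (-0.35) and was not called, and Elovl2 and Elovl3 were near background on every array.

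Of the 4 measured fatty acid desaturase genes among the 28, Fads2 fell, and Fads1, Scd1 and Scd2 were not called as deposited. Fads2, which places the first extra double bond in polyunsaturated fatty acids, fell from 1123 and 1388 to 101 units, 0.081 times the sensitive mean. Its log2 difference of -3.10 (SE 0.25, limma adjusted p = 1.41e-06) was the largest of the 28 in size, and it stayed at -2.54 after scaling and -2.56 after quantile normalization. Fads1, which places the next one, read 8765 and 8187 against 6782 (-0.32) and was not called. Fads1, Fads2 and Fads3 stand next to each other on chromosome 19 in the GRCm38.p6 annotation, and Fads3 fell as well, from 1085 and 1075 to 66.9 (-3.27, adjusted p = 8.46e-07). The dim second probe of Fads3 read 59.6, 31.7 and 3.11. Whether Fads1 and Fads2 differ in their change was not tested.

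Scd2, a stearoyl-CoA desaturase that makes monounsaturated fatty acids, read 29372 and 33824 against 67239, 2.13 times the sensitive mean. Its log2 difference was 1.09 (SE 0.22, limma adjusted p = 0.0014), and it missed the size asked by little against replicate 2 (0.99). It was called after scaling (1.86) and not after quantile normalization (0.88). Scd1, of the same gene cluster on chromosome 19, read 72.1 and 141 against 109, between the sensitive arrays. Probe sequences were not used here, so signal shared between such related genes was not tested.

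Set side by side, the branches differed less in their middle than in their width. The median log2 difference was 0.24 for sterol enzymes, -0.04 for fatty acid enzymes and -0.33 for all genes. For genes of at least 500 units it was -0.74. The sterol median exceeded the fatty acid median by 0.28, by 0.19 measured from replicate 1 and by 0.36 from replicate 2. After scaling the gap was 0.45, with medians of 0.99 and 0.54 against -0.06 for all genes, and after quantile normalization it was 0.31. Sterol enzymes ranged from -1.06 (Pmvk) to 1.23 (Nsdhl), and fatty acid enzymes from -3.10 (Fads2) to 1.48 (Elovl5). No test was made between the branches, because members are not replicates.

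**Figure D3:**
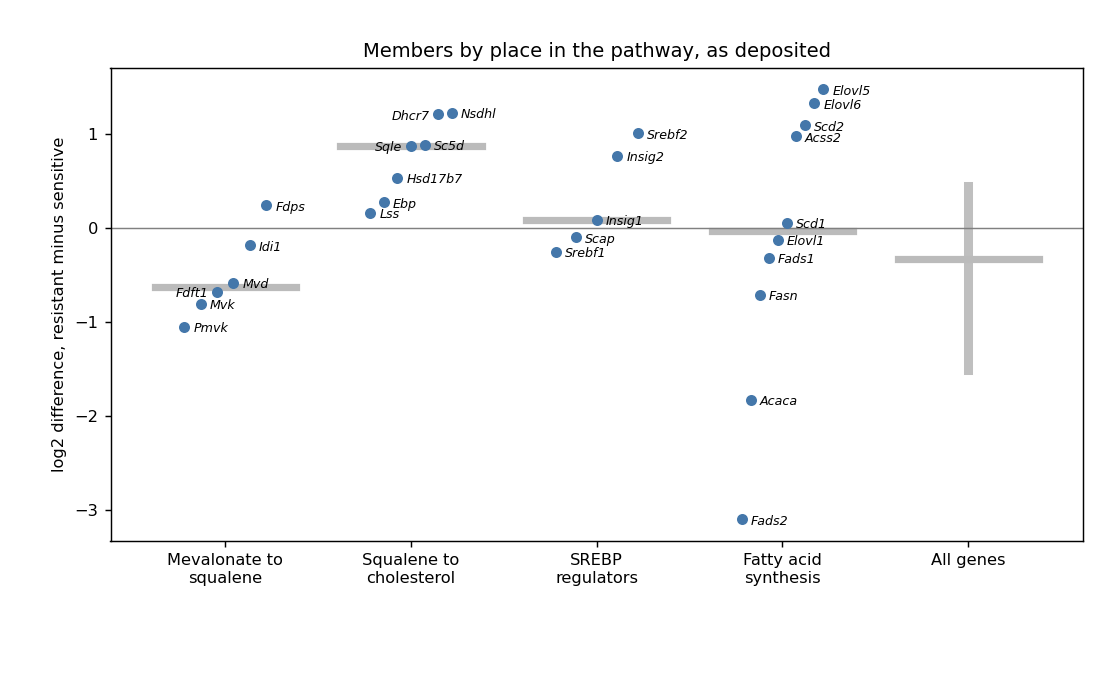
Log2 difference as deposited, resistant minus sensitive, for each measured gene by its place in the pathway; grey bars are group medians, and the last column gives the median and the range from the 10th to the 90th percentile of all 17742 genes. The 7 late sterol enzymes all lie above 0 and 5 of 6 early ones below it, and the fatty acid enzymes span from Fads2 at -3.10 to Elovl5 at 1.48. The median of genes of at least 500 units, not drawn, was -0.74.

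Other genes of sterol handling were taken from lists chosen by function. Over all genes, 5.21% rose and 8.32% fell, which is the background for the counts of genes that rose or fell. Of 5318 genes of at least 500 units, 469 rose and 712 fell. Of 4 measured further sterol enzymes none was called as deposited, and 2 were called higher after scaling (9.87% of all genes were). Msmo1, the sterol methyl oxidase, read 9117 and 8818 against 9845 (0.13, and 0.90 after scaling, with no call). Among 6 genes that cleave SREBP or degrade sterol-regulated proteins, 2 rose (33.3%) and none fell. Mbtps2, the protease that frees the active SREBP fragment, rose from 404 and 430 to 1699 (1.91, limma adjusted p = 3.86e-05), and its dimmer probe read 74.5, 83.1 and 445. Erlin2, part of an endoplasmic reticulum degradation complex, rose from 378 and 342 to 1543 (1.96). Mbtps1, the protease that makes the preceding cut, read 4089 and 4270 against 6207 (0.57) and was called after scaling (1.33) and after centring (1.19).

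Of 12 measured genes of sterol uptake, storage and export, 3 rose (25%) and 2 fell (16.7%), and the cholesterol exporters moved in opposite directions. Abca1 fell from 1323 and 1655 to 353 (-1.92, limma adjusted p = 3.86e-05; -1.23 after scaling). Abcg1 rose from 271 and 381 to 1249 (1.80), and its dimmer probe read 58.4, 80.5 and 268. Scarb1, a receptor for high-density lipoprotein, rose from 1947 and 1757 to 5312 (1.50). Nr1h2, a sterol-sensing nuclear receptor of the LXR type, fell from 173 and 273 to 24.9 (-1.84), a level near background in resistant cells. Npc1, a lysosomal cholesterol transporter, read 614 and 609 against 747 (0.27), and was not called after scaling either (1.00). The median of the 12 was 0.06 as deposited, 0.79 after scaling and 0.51 after quantile normalization.

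Of 12 genes on the isoprenoid side branches 1 rose (8.33%) and none fell. Zmpste24, a protease that trims farnesylated proteins such as prelamin A, rose from 23.6 and 46.2 to 12088, a difference of 7.17 on the log2 scale (SE 0.27, adjusted p = 7.81e-09 in limma). Its other probe showed the same direction, with 84.5 and 168 against 9153, and was the brighter one on both sensitive arrays. With the mean of both probes the difference was 6.46. Ggps1, which makes geranylgeranyl diphosphate, read 206 and 244 against 87.1, below both sensitive arrays, and was not called because it missed the size asked against replicate 1 (-0.90). After scaling its difference was -0.46. The list's median was -0.39 as deposited, near the -0.33 of all genes, and turned to 0.25 after scaling and 0.14 after quantile normalization.

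Of 22 further fatty acid genes 2 rose (9.09%) and 2 fell (9.09%). As deposited, 5 were called lower (22.7%, against 18.5% of all genes), so these shares lie near the background. The list's median was -0.15 as deposited and 0.25 after scaling. Hacd1 and Hacd2, dehydratases of the elongation cycle that Elovl enzymes begin, rose by 1.70 and 1.34, from 2743 and 3345 to 9970 and from 1749 and 1696 to 4449. The second probe read 44.7, 3.96 and 104 for Hacd1 and 48.5, 21.1 and 31.1 for Hacd2, and with the mean of both probes the Hacd2 difference was 0.65 and its call was lost. Hacd4 fell from 363 and 492 to 70.0 (-1.98). Me1, a cytosolic source of NADPH, read 9.94 and 7.91 against 60.7 (0.91). It was not called as deposited, and was called after scaling (1.38) and after quantile normalization (1.30).

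The last list holds genes that activate acyl chains and place them into glycerolipids. Of its 13 genes 5 rose (38.5%) and none fell, with a median of 0.28 as deposited and 1.03 after scaling. Dgat2, which makes triacylglycerol, rose from 117 and 194 to 1888 (3.26, SE 0.29, limma adjusted p = 3.30e-06; 4.02 after scaling). Dgat1, the other enzyme of that step, rose from 1105 and 1388 to 3152 (1.31). Gpam and Agpat3, acyltransferases of earlier steps, rose from 50.9 and 68.6 to 297 (1.67) and from 13.7 and 26.4 to 320 (2.41), both from dim parental levels. Acsl4, which activates polyunsaturated fatty acids, read 2557 and 2275 against 1328 (-0.84, and -0.09 after scaling) and was not called.

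**Figure D4:**
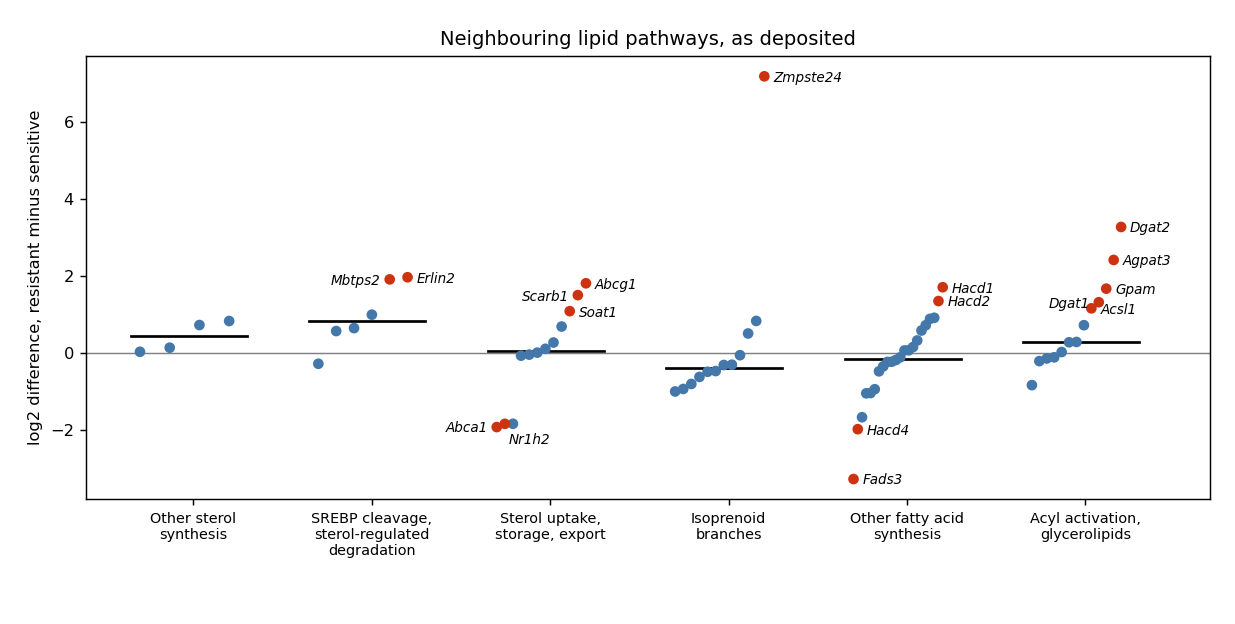
Log2 difference as deposited, resistant minus sensitive, of genes in 6 neighbouring lipid lists; black bars are list medians, and genes called both as deposited and after scaling are red and named. Zmpste24 stands at 7.17, Dgat2 at 3.26 and Fads3 at -3.27.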

How the data were processed

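Per the labels' protocols, total RNA was amplified as amino-allyl antisense RNA and labelled with Cy5 alone, giving 1-colour arrays. The authors deposited an intensity per probe and array, linear, with values below 0, so a background had been subtracted; image software and scaling: not given in the sources used here. Of 26423 probes, 20377 had a platform symbol; 18213 of these matched a current name in GRCm38.p6 and 2126 an older one. Groups came from the sample titles.

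limma 3.58.1 in R 4.3.3 (lmFit, then eBayes with a trend) was fitted to log2(intensity + 50) of 17742 genes on 3 arrays, with 1 residual degree of freedom per gene and a prior of 11. The step was tested on simulated data. The members and gene lists were chosen with earlier results of these data known, the offset likewise. All measured members were named. From the other lists came up to 4 genes called as deposited and after scaling, by size, and up to 2 well-known genes not called. The Elovl genes of those lists were named as well. Alternatives were scaling on bright probes, quantile normalization, centring, offsets of 16 and 100, a filter on the dimmest 25% of genes, averaging each gene's probes, dropping the eBayes trend, and leaving out each sensitive array. Tables and figures were made in Python 3.11.15 (pandas 2.3.3, matplotlib 3.10.9). With 3 arrays, their number limits the precision.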

Additional observations from a re-analysis of the deposited data

How the results depend on the processing

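Scaling decided most counts. As deposited, 928 genes were higher and 3284 lower, against 1752 and 1494 after scaling on bright probes, 1505 and 1508 after quantile normalization, and 1697 and 1273 after centring on array medians. In that order, sterol enzymes called higher went from 1 to 6, 4 and 5, and regulators from 0 to 2, 2 and 2. Fatty acid enzymes called higher went from 2 to 4 after scaling and after centring. The sterol median moved from 0.24 to 0.99, 0.77 and 0.86, and the fatty acid median turned from -0.04 to 0.54, 0.46 and 0.59. The gap between them moved from 0.28 to 0.45 after scaling only. An offset of 100 left 0 sterol enzymes called higher (Nsdhl, 0.93), and an offset of 16 called 1 lower (Pmvk, -1.14).

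Some differences under 1 in size changed sign, in the same order where 3 values are given. Idi1 went to 0.57, 0.36 and 0.44, Srebf1 to 0.16, 0.37 and 0.37, and Elovl1 to 0.14, 0.31 and 0.49. After scaling and centring, Mvd went to 0.16 and 0.036, Scap to 0.67 and 0.52, and Fads1 to 0.45 and 0.30. Fdft1 went to 0.059 after scaling. Mvd and Fdft1 were not small as deposited, at -0.59 and -0.68 (limma adjusted p = 0.039 and 0.025). The lower reading of these early sterol enzymes therefore depends on the scale. The cause was not tested beyond the shift between arrays that these settings remove.

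With 1 sensitive array left out there was no test, and size alone was used. Sterol enzymes higher were 2 in either case (Sqle replacing Dhcr7 without replicate 1) and lower 0 to 1. Fatty acid enzymes higher were 2 to 4, regulators 0 to 1, and the fatty acid median -0.18 to 0.11. Insig1 ranged from -0.088 to 0.26 and Scd1 from -0.27 to 0.38. Without replicate 2, Dhcr7, Srebf2, Acss2 and Scd2 reached the size asked. No paired analysis was possible because the resistant group is 1 array with no replicate number. Intensity close to background limits Srebf1, Fasn, Scd1 and Elovl1.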
